A study of Mus musculus with 6 samples.

Results

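The genes described here encode the ephrin, Slit-Robo and netrin guidance systems of the mouse dentate gyrus. They were taken as the protein-coding rows of a gene count table whose symbols belong to the Eph receptors, ephrins, Slits, Robos, netrins, Unc5 receptors, Dcc or Neo1. This gave 38 genes of 54040 in the table, 22058 of which are protein-coding. The 38 comprise 9 class A and 5 class B Eph receptors, 5 ephrin-A and 3 ephrin-B ligands, 3 Slits, 4 Robo receptors, 3 netrins, 4 Unc5 receptors, and Dcc with its relative Neo1. The libraries were 3 labelled cKO, from dentate gyrus in which YTHDF2 had been knocked out, and 3 labelled Ctrl, from dentate gyrus described as the negative control. Both groups were C57BL/6 mice at postnatal day 40, and total RNA of the tissue was sequenced. The title places the knockout in granule cells, but the labels give neither the Cre driver, nor the deleted exons, nor the control genotype, nor whether the replicates were separate animals, so that each p-value reflects only how far these 6 libraries differ among themselves. YTHDF2 is a reader of N6-methyladenosine (m6A) that directs marked messages to decay, and the study asked which mRNAs differ after its loss.

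Ephrins are cell-surface ligands, anchored by a lipid (ephrin-A) or by a transmembrane domain (ephrin-B), and Eph receptors are the tyrosine kinases that bind them on a neighbouring cell, with signals running into both cells. Slits are secreted proteins that mostly repel axons through Robo receptors, and netrins attract through Dcc and repel through Unc5 receptors. In the hippocampus these systems steer mossy fibres, the axons of granule cells, and shape dendritic spines and synapses.

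The depth was similar across libraries, with 16794642 to 18609419 gene counts in cKO libraries and 16861496 to 19190101 in Ctrl libraries. Ythdf2 itself was at 56.8, 56.5 and 54.5 CPM (counts brought to a common library total, with TMM scaling) in cKO replicates 1 to 3, against 37.9, 68.6 and 68.4 CPM in Ctrl replicates 1 to 3. The library labelled Ctrl replicate 1 thus had less Ythdf2 RNA than any cKO library, which goes against its label. With it, Ythdf2 did not pass the test (log2 fold change -0.06, edgeR adjusted p = 0.882). Without it Ythdf2 passed (-0.29, edgeR adjusted p = 0.00951), but this library was singled out by the same gene, so that p-value is no independent check. Counts outside the deleted exons would not check a label, and the members that passed are given with and without this library. Of 17 granule cell markers, 1 rose and 1 fell, with a summed level of 4189 to 4399 CPM in cKO libraries and 4069 to 4320 CPM in Ctrl libraries. Prox1 and Calb1, both among these markers, were at 520 and 303 CPM in cKO libraries and at 536 and 322 CPM in Ctrl libraries. Markers of other cells were present too, so the samples held more than granule cells: 3 of 10 astrocyte genes fell (summed 5415 to 5438 CPM in cKO libraries, 5828 to 5982 CPM in Ctrl libraries), as did 5 of 10 tested microglial genes (358 to 377 CPM in cKO, 414 to 449 CPM in Ctrl). Among markers of mossy cells, CA1 and CA2 with CA3 neurons 1 gene each rose, and edgeR called 0 among those of inhibitory neurons, immature neurons, oligodendrocytes, their precursors, endothelium, mural cells, choroid plexus and blood, where 1, 5, 0, 0, 1, 0, 0 and 1 had an unadjusted p under 0.05. In the lists with calls, an unadjusted p under 0.05 was found for 6 of 17 granule cell, 8 of 10 astrocyte and 9 of 10 microglial genes. It was found for 1 of 6 mossy cell, 2 of 6 CA1 and 4 of 8 CA2 and CA3 genes. Log2 fold changes were below 0 for 10 granule cell, 9 astrocyte and all 10 tested microglial genes. Beside these counts, 3.07% of all tested genes were called higher and 0.874% lower in cKO, and 2981 of 16928 had an unadjusted p under 0.05. In such bulk RNA, fewer cells of a type and less RNA per cell cannot be told apart.

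The guidance genes covered a wide range of levels in this tissue. On the FPKM scale, which divides by the deposited gene length, Slit1 was highest at 111 ± 3.64 in cKO and 95.1 ± 5.72 in Ctrl libraries (SD, n = 3 each). That length differed unevenly from that of the longest annotated transcript. It was 25433 beside 9960 bases for Slit2, 16528 beside 8591 for Robo2 and 5921 beside 5673 for Slit1. The order of genes and the family shares therefore hold for the deposited lengths only. The lowest in Ctrl libraries was Epha1, at 0.198 ± 0.0185 FPKM in cKO and 0.166 ± 0.0794 FPKM in Ctrl libraries. In Ctrl libraries the top of the order after Slit1 was Efnb3, Epha4, Unc5a and Epha7. The range of Epha4 overlapped that of Unc5a over the 6 libraries, while Slit1, Efnb3 and Epha7 were separated from their lower neighbours. Over the whole order, 12 of 37 neighbouring pairs did not overlap, and 28 of the 38 genes averaged at least 1 FPKM in Ctrl libraries.

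**Figure D1:**
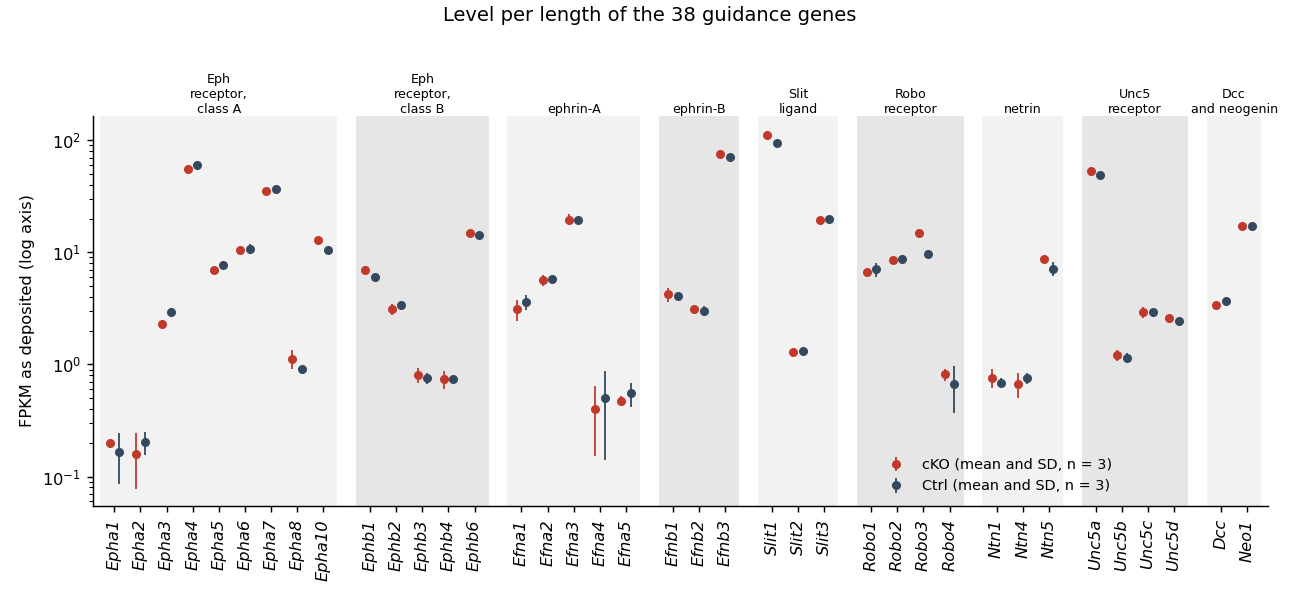
Level per length (FPKM as deposited, log axis) of the 38 guidance genes by family, with cKO left of Ctrl; points are means and bars SD over 3 libraries. In most families 1 member lies far above the others, as Slit1 does at 111 FPKM in cKO and 95.1 FPKM in Ctrl libraries.

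In 7 of the 9 families 1 member held over 50% of the summed FPKM in every library. Small families reach this bound more easily, and the higher of Dcc and Neo1 must hold at least 50% in any library. The shares also depend on the deposited gene lengths. In class B, Ephb1 was divided by 7002 bases, beside 4667 in its longest transcript, and Ephb6 by 3773, beside 3762. Efnb3, the ephrin-B whose reverse signal takes part in mossy fibre pruning in the mouse, held 91.2% ± 0.769 of the summed ephrin-B FPKM in cKO and 90.9% ± 0.422 in Ctrl libraries. Unc5a held 88.8% ± 0.613 of the Unc5 sum in cKO and 88.2% ± 0.524 in Ctrl libraries. Ntn5 held 85.9% ± 2.16 of the netrin sum in cKO and 83.1% ± 1.23 in Ctrl libraries, whereas Ntn1, the classical secreted netrin, held 7.51% ± 1.09 in cKO and 8.09% ± 1.22 in Ctrl libraries. These netrin shares are uncertain, as Ntn5 overlaps Sec1 on the opposite strand and strand use in counting is not given. Neo1 made up 83.7% ± 1.16 of the Dcc and Neo1 sum in cKO and 82.4% ± 0.920 in Ctrl libraries. Among Eph receptors, Epha4 held 44.4% ± 0.154 of the class A sum in cKO and 46.1% ± 0.0826 in Ctrl libraries, and Ephb6, a receptor without kinase activity, held 56.4% ± 2.17 of the class B sum in cKO and 56.9% ± 0.833 in Ctrl libraries. No member reached 50% in class A, where Epha7 followed Epha4 with 28.1% ± 1.53 in cKO and 28.4% ± 0.158 in Ctrl libraries. None did so in the Robo family either, with Robo1, Robo2 and Robo3 each holding between 20.7% and 49.3% of the sum in every library.

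All 38 genes passed the filter on low counts and were tested, in 1 fit over 16928 genes. Robo3, Epha10 and Slit1 rose in cKO libraries and no member fell, leaving 35 that did not pass. The 3 called members are 7.89% of 38, beside 3.95% of all tested genes called in either direction, 3.07% called higher and 0.874% called lower in cKO. With so few members, nothing particular to the group is read from these shares. The median log2 fold change was 0.01 over the members, with 20 above and 18 below 0, and -0.00 over all tested genes, and an unadjusted p under 0.05 was found for 10 of 38 members, beside 2981 of 16928 genes. The CPM values of the groups did not overlap for 10 members (26.3%), beside 22.9% of all tested genes. Without the library labelled Ctrl replicate 1, Robo3, Epha10 and Slit1 again rose and no other member passed, beside 2.91% of all tested genes. Leaving out cKO replicate 2, cKO replicate 3 or Ctrl replicate 2 took the count over all genes to 427, 214 or 355 from 668, with 3, 3 and 2 members called. As a comparison within axon guidance, 2 of 31 semaphorins, plexins and neuropilins rose and none fell (6.45%).

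**Figure D2:**
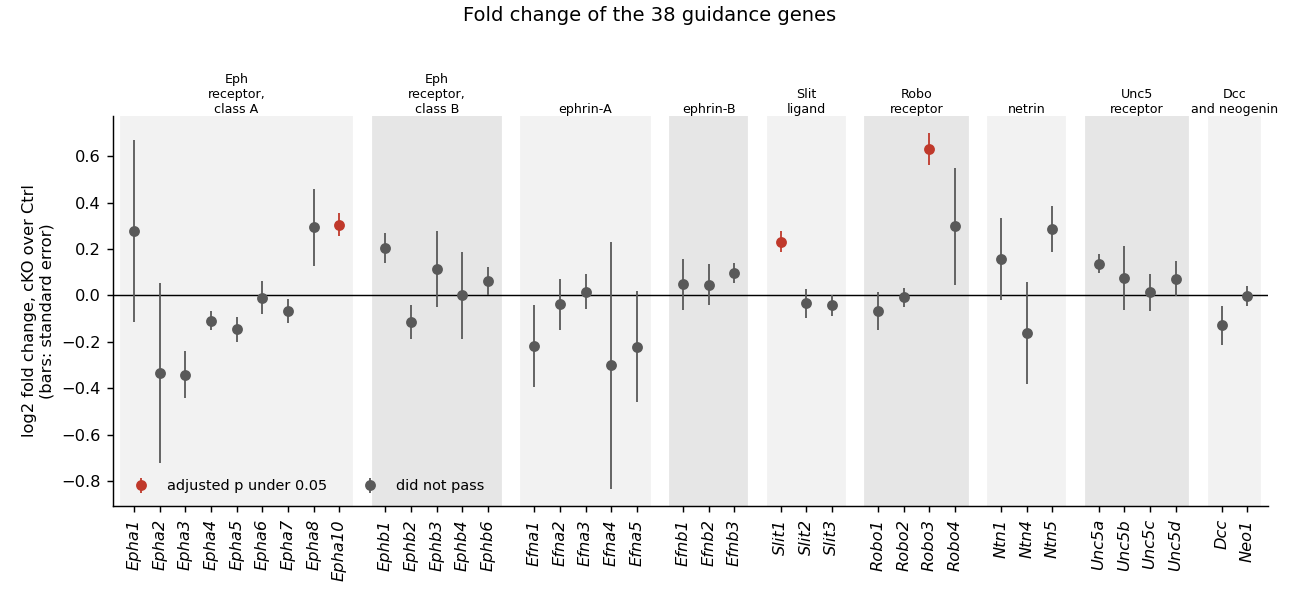
Fold change of each guidance gene (log2, cKO over Ctrl, with standard error) by family; red points passed at an edgeR adjusted p under 0.05 and grey points did not. Robo3 stands highest at 0.63, followed among the genes that passed by Epha10 at 0.31 and Slit1 at 0.23.

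Robo3 showed the largest change of the 3 genes that passed. It is a divergent Robo receptor that in mammals does not bind Slits with high affinity and is best known from commissural axons, where it permits midline crossing. Robo3 was at 93.0, 106 and 111 CPM in cKO replicates 1 to 3, against 64.2, 63.2 and 72.2 CPM in Ctrl replicates 1 to 3. Every cKO library lay above every Ctrl library, with a gap wider than the spread within either group. The means were 103 ± 9.01 CPM in cKO and 66.5 ± 4.94 CPM in Ctrl libraries (SD, n = 3 each), a log2 fold change of 0.63 ± 0.07 (SE, 1.55-fold) with an edgeR adjusted p of 0.000214. Robo3 passed under all 17 alternatives, with log2 fold changes between 0.53 and 0.70, and without the library labelled Ctrl replicate 1 the change was 0.60 (edgeR adjusted p = 0.000466).

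The other Robo receptors did not pass. Robo1 and Robo2, the main neuronal Slit receptors, were at 6.74 ± 0.281 and 8.62 ± 0.0460 FPKM in cKO libraries, against 7.08 ± 1.00 and 8.69 ± 0.160 FPKM in Ctrl libraries, with log2 fold changes of -0.07 and -0.01 (edgeR adjusted p = 0.740 and 0.957). Robo1 and Robo2 turned to 0.05 and 0.01 without the library labelled Ctrl replicate 1. Robo3 accordingly held 48.0% ± 2.18 of the summed Robo FPKM in cKO and 37.1% ± 2.78 in Ctrl libraries, and its lowest cKO share (45.5%) lay above its highest Ctrl share (39.5%). Robo4, the endothelial member, was near 1 FPKM (0.815 ± 0.101 in cKO, 0.667 ± 0.301 in Ctrl libraries) and had a log2 fold change of 0.30 (edgeR adjusted p = 0.601). The 9 endothelial markers gave 118 to 119 summed CPM in cKO and 103 to 110 CPM in Ctrl libraries, with 0 called by edgeR and 1 at an unadjusted p under 0.05, and their part in the value of Robo4 was not tested.

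Robo3 (ENSMUSG00000032128) lies on the minus strand of chromosome 9 (GRCm38, 37415669 to 37433246), and the end of Robo4, on the opposite strand, lies 554 bases beyond the end of Robo3. The stretch upstream of Robo3 is shown because this gene had the largest called change. It is the RefSeq GRCm38.p6 promoter window from 250 bases before the RefSeq start, at chr9:37433247-37433425 on the minus strand after removal of bases inside the deposited gene, with the GC box motif (GGGCGG, or CCGCCC on the other strand) in capitals.
Robo3 upstream: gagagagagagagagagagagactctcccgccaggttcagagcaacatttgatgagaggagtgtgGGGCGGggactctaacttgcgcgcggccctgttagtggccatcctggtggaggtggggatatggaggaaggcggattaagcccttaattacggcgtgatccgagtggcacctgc
A GC box occurred in the 250 bases before the start of 23 of the 33 members with a RefSeq window (69.7%), beside 32.7% of all 32851 windows, and the TATAAA motif in 2 members, beside 12.4% of all windows, counting either strand and overlapping matches. The windows of members also held more CpG (C followed by G), with a median of 17, beside 6 over all windows. The windows used for comparison were not matched to the members on base content or on expression in this tissue. Nothing particular to the guidance genes is therefore read from these motif shares, and whether they differ beyond base content was not tested. Over its full 250 bases, which include the bases removed from the stretch shown, Robo3 had 3 GC boxes. A match describes letters only, and no binding was measured.

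Robo3 is also of interest because its message is a known m6A target in mouse spinal cord, where another reader, YTHDF1, binds it. GGACT is the form of the m6A consensus most often found at modified sites, and no m6A was measured here. The longest protein-coding Robo3 transcript of GENCODE M21 (4797 bases, 28 exons) holds 5 GGACT, all in the coding sequence. The 3 whose surroundings lie within 1 coding exon are at chr9:37432942-37432962 in exon 1, chr9:37422205-37422225 in exon 14 and chr9:37421487-37421507 in exon 16, all on the minus strand, with the motif in capitals.
Robo3 exon 1: ttgttcgcGGACTccctggcc
Robo3 exon 14: tgctaagaGGACTgcccccag
Robo3 exon 16: cgttcagcGGACTgctaccag
Across the 38 members the longest annotated transcript held a median of 1.44 GGACT per kb, beside 1.04 over 13936 tested protein-coding genes. By that measure Robo3 had 1.40, Epha10 0.644 and Slit1 2.29 per kb. For Robo3 the longest annotated transcript is another one, of 5000 bases with 7 GGACT, and the protein-coding transcript above had 1.04 per kb.

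Epha10 rose by less but with little spread. Epha10 (ENSMUSG00000028876, on chromosome 4) encodes an Eph receptor whose kinase domain lacks activity. Epha10 was at 91.1, 96.4 and 94.7 CPM in cKO replicates 1 to 3, against 75.5, 79.3 and 73.7 CPM in Ctrl replicates 1 to 3. All cKO libraries lay above all Ctrl libraries. The means were 94.1 ± 2.68 CPM in cKO and 76.2 ± 2.84 CPM in Ctrl libraries (SD, n = 3 each), a log2 fold change of 0.31 ± 0.05 (SE, 1.24-fold) with an edgeR adjusted p of 0.00329. Epha10 accordingly held 10.4% ± 0.479 of the class A Eph sum in cKO and 8.10% ± 0.161 in Ctrl libraries. These ranges, which rest on the same counts as the call, did not overlap. Epha10 kept its call under 15 of 17 alternatives, among them without the library labelled Ctrl replicate 1 (0.30, edgeR adjusted p = 0.00760), and missed it with offsets for GC content and length (0.19, edgeR adjusted p = 0.0545) and in limma on log2(FPKM + 1) (0.28, limma adjusted p = 0.0507).

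The longest protein-coding Epha10 transcript has 3 GGACT, 1 of them coding, shown for comparison with Robo3; it lies in exon 3 at chr4:124894778-124894798 on the plus strand.
Epha10 exon 3: ccgcctgcGGACTcaggcggc
An antisense gene, 1700125G02Rik, overlaps Epha10, and whether counting used strand is not given in the sources used here. Its 172 counts over the 6 libraries were 1.92% of those of Epha10, and it did not pass (log2 fold change 0.73, edgeR adjusted p = 0.282).

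The remaining class A Eph receptors did not pass. Epha3, which binds ephrin-A5 with high affinity, was at 13.6, 11.8 and 13.7 CPM in cKO replicates 1 to 3, against 18.2, 15.2 and 16.1 CPM in Ctrl replicates 1 to 3. Its groups did not overlap, with the cKO libraries lower, and its log2 fold change of -0.34 ± 0.10 (SE) had an edgeR adjusted p of 0.0802, falling under the threshold under 1 of 17 alternatives (no filter on low counts, edgeR adjusted p = 0.0378). Epha4, the receptor that also binds ephrin-B ligands and acts at hippocampal spines, was at 459, 446 and 444 CPM in cKO replicates 1 to 3, against 490, 504 and 460 CPM in Ctrl replicates 1 to 3, a log2 fold change of -0.11 (edgeR adjusted p = 0.180). The groups of Epha4 did not overlap but nearly touched at 459 and 460 CPM. Epha5 had a log2 fold change of -0.15 (edgeR adjusted p = 0.168), with Ctrl replicate 3 at 120 CPM inside the cKO range of 114 to 122 CPM. Epha7 and Epha6 were at 35.1 ± 2.60 and 10.6 ± 0.566 FPKM in cKO and at 36.9 ± 1.54 and 10.7 ± 1.07 FPKM in Ctrl libraries, with adjusted p values of 0.558 and 0.965. Epha8, Epha1 and Epha2 were low, at 1.12, 0.198 and 0.160 FPKM in cKO and 0.918, 0.166 and 0.202 FPKM in Ctrl libraries, with adjusted p values of 0.399, 0.779 and 0.717. Epha1 is uncertain, as it overlaps Zyx, which had 4819 counts in all beside 75 for Epha1.

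None of the 5 class B Eph receptors passed, and their log2 fold changes ran from -0.11 to 0.21. Ephb1, which with Ephb2 couples to NMDA receptors at synapses, was at 50.9, 45.9 and 50.1 CPM in cKO replicates 1 to 3, against 45.0, 39.8 and 42.7 CPM in Ctrl replicates 1 to 3. The lowest cKO library lay just above the highest Ctrl library, and the change of 0.21 ± 0.06 (SE) had an edgeR adjusted p of 0.0975. Ephb2 went the other way in value, with a log2 fold change of -0.11 (edgeR adjusted p = 0.471) and cKO libraries spread from 35.3 to 44.0 CPM around Ctrl libraries at 41.8 to 42.9 CPM. Ephb6 was at 14.99 ± 0.901 FPKM in cKO and 14.4 ± 0.479 FPKM in Ctrl libraries (edgeR adjusted p = 0.645). Ephb3 and the vascular receptor Ephb4 were at 0.810 and 0.738 FPKM in cKO and 0.752 and 0.741 FPKM in Ctrl libraries. Ephb4 had a log2 fold change of 0.00 ± 0.19 (SE; -0.00217 and -0.00633 under RLE and upper-quartile scaling), and it overlaps Zan on the opposite strand, which had 22.4% as many counts.

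**Figure D3:**
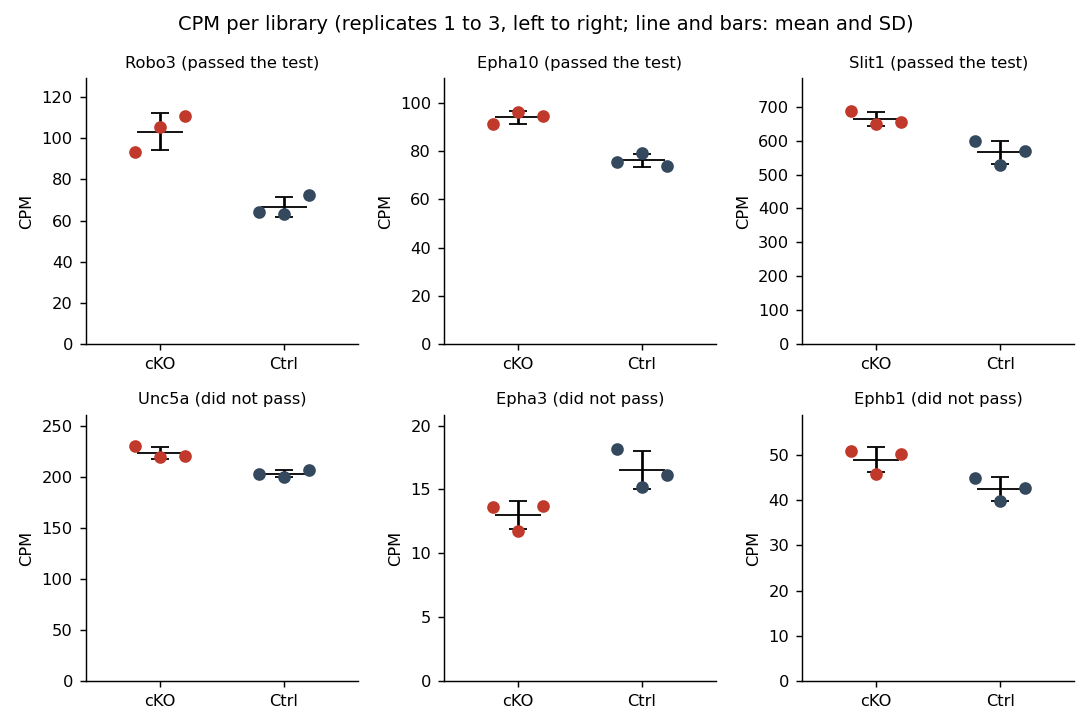
CPM of the 6 guidance genes of smallest p in each library, cKO left of Ctrl; points are replicates 1 to 3 from left to right, lines and bars mean and SD. The groups are separate in all 6 panels, with cKO lower only for Epha3, where cKO libraries lie at 11.8 to 13.7 CPM and Ctrl libraries at 15.2 to 18.2 CPM.

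No ephrin ligand passed. Efnb3 had 242, 253 and 236 CPM in cKO replicates 1 to 3, against 222, 226 and 235 CPM in Ctrl replicates 1 to 3. The groups did not overlap but nearly touched at 236 and 235 CPM, and the log2 fold change was 0.10 (edgeR adjusted p = 0.245). Efnb1 and Efnb2, the other transmembrane ephrins, were at 4.22 ± 0.613 and 3.10 ± 0.209 FPKM in cKO and 4.10 ± 0.197 and 3.00 ± 0.308 FPKM in Ctrl libraries, with adjusted p values of 0.877 and 0.848. Of the 5 ephrin-A genes, 4 had a log2 fold change below 0 and the median was -0.22, but adjusted p values lay between 0.581 and 0.948. The most abundant of them, Efna3, which astrocytes present to Epha4 on spines, gave 19.6 ± 2.15 FPKM in cKO and 19.5 ± 1.34 FPKM in Ctrl libraries. Efna2 and Efna1 were at 5.63 ± 0.632 and 3.10 ± 0.679 FPKM in cKO and at 5.80 ± 0.247 and 3.63 ± 0.539 FPKM in Ctrl libraries. Efna5 and Efna4 were under 1 FPKM in every library, and Efna4, with 76 counts in all, overlaps the antisense gene 4731419I09Rik over a short stretch in which reads could not be assigned without strand. That gene had 78 counts and rose (log2 fold change 1.73, edgeR adjusted p = 0.0182).

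Slit1 was the third member that rose, and the only ligand. Slits are large secreted glycoproteins, and Slit1 is found mainly in the nervous system. Slit1 was at 688, 649 and 653 CPM in cKO replicates 1 to 3, against 597, 528 and 570 CPM in Ctrl replicates 1 to 3. All cKO libraries lay above all Ctrl libraries, with Ctrl replicate 2 the lowest. The means were 664 ± 21.4 CPM in cKO and 565 ± 34.8 CPM in Ctrl libraries (SD, n = 3 each), a log2 fold change of 0.23 ± 0.05 (SE, 1.17-fold) with an edgeR adjusted p of 0.0110. Slit2 and Slit3 were at 1.295 ± 0.0412 and 19.3 ± 0.678 FPKM in cKO and 1.33 ± 0.0430 and 19.96 ± 0.262 FPKM in Ctrl libraries, and had log2 fold changes of -0.03 and -0.04 (edgeR adjusted p = 0.843 and 0.680). Slit1 therefore held 84.4% ± 0.675 of the Slit sum in cKO and 81.7% ± 0.946 in Ctrl libraries.

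The call of Slit1 depended on 2 single libraries. Without cKO replicate 1 the log2 fold change was 0.20 (edgeR adjusted p = 0.0528) and without Ctrl replicate 2 it was 0.18 (edgeR adjusted p = 0.0553), whereas without the library labelled Ctrl replicate 1 it was 0.27 (edgeR adjusted p = 0.00251). Slit1 kept its call under 12 of 17 alternatives and also missed it with offsets for GC content and length (0.13, edgeR adjusted p = 0.202) and in limma on log2(FPKM + 0.1) and log2(FPKM + 1) (0.23 in both, limma adjusted p = 0.0816 and 0.0811).

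The longest protein-coding transcript of Slit1 (ENSMUSG00000025020, chromosome 19, minus strand) holds 13 GGACT, 9 in the coding sequence and 4 in the 3′ UTR. The first coding site and the last are shown beside those of Robo3, from chr19:41743262-41743282 in exon 1 and chr19:41602257-41602277 in exon 35.
Slit1 exon 1: actacggtGGACTgccacggc
Slit1 exon 35: gaactgcaGGACTtcaccaag

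**Figure D4:**
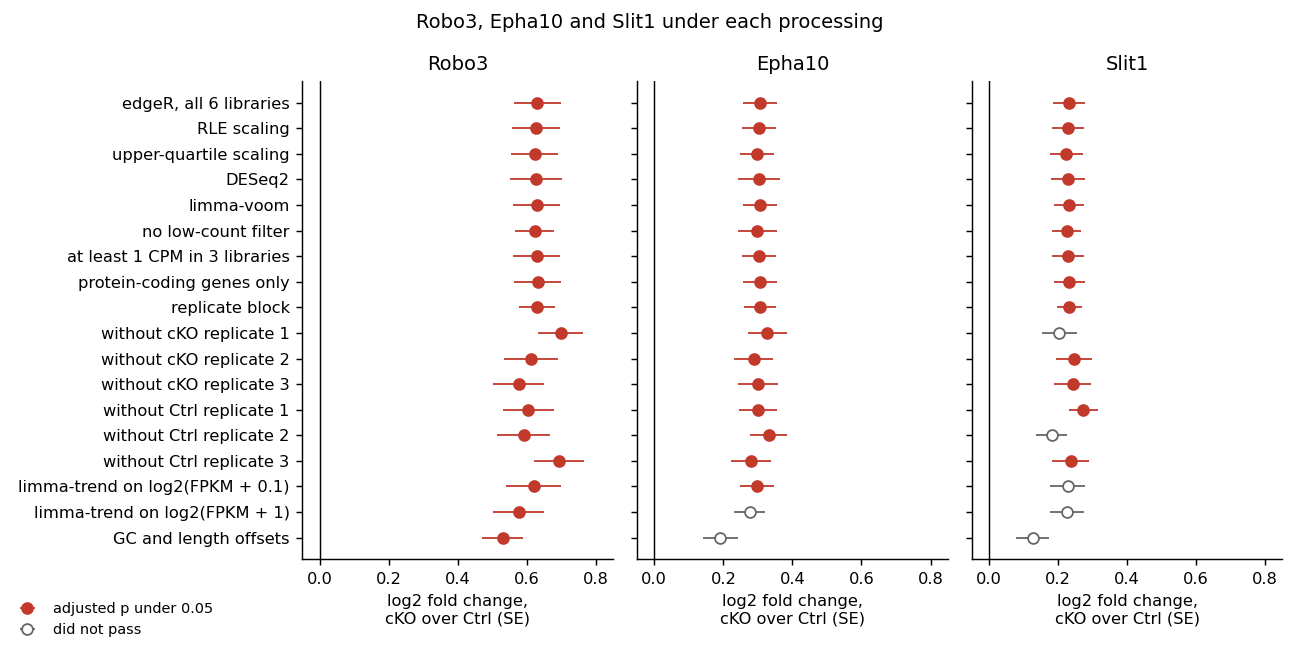
Log2 fold change (cKO over Ctrl, with SE) of Robo3, Epha10 and Slit1 in the main test with all 6 libraries and under 17 alternatives; filled red points passed at an adjusted p under 0.05 and open points did not. Every point lies above 0, and Robo3 passed throughout, Epha10 under 15 and Slit1 under 12 alternatives.

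No netrin or netrin receptor passed. Unc5a, the most abundant Unc5 receptor, was at 230, 220 and 221 CPM in cKO replicates 1 to 3, against 203, 200 and 207 CPM in Ctrl replicates 1 to 3. The groups did not overlap, yet the change was small, at 0.14 ± 0.04 (SE, 1.10-fold), with an edgeR adjusted p of 0.0779. The other 3 Unc5 receptors, which bind netrins and FLRT proteins, had log2 fold changes of 0.08 (Unc5b), 0.01 (Unc5c) and 0.07 (Unc5d) with adjusted p values of 0.838, 0.962 and 0.674. Dcc was at 3.37 ± 0.333 FPKM in cKO and 3.71 ± 0.302 FPKM in Ctrl libraries (log2 fold change -0.13, edgeR adjusted p = 0.466). Neo1, which also serves as the receptor of repulsive guidance molecules, was at 17.2 ± 0.287 FPKM in cKO and 17.3 ± 0.50 FPKM in Ctrl libraries (log2 fold change -0.00, edgeR adjusted p = 0.976).

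Among the netrins, Ntn5, which in the mouse is expressed in adult neurogenic regions, was at 18.8, 19.2 and 20.04 CPM in cKO replicates 1 to 3, against 13.6, 17.95 and 16.1 CPM in Ctrl replicates 1 to 3. The cKO libraries were all higher, but the Ctrl libraries were spread widely, and the log2 fold change of 0.28 ± 0.10 (SE) had an edgeR adjusted p of 0.134. Ntn5 overlaps Sec1 on the opposite strand, which had 57.1% as many counts and a log2 fold change of 0.13 (edgeR adjusted p = 0.649). Ntn1 and the basement membrane netrin Ntn4 were at 0.763 ± 0.150 and 0.67 ± 0.165 FPKM in cKO and 0.687 ± 0.0641 and 0.756 ± 0.0879 FPKM in Ctrl libraries, with adjusted p values of 0.704 and 0.768. The 12 markers of progenitors and immature neurons gave 529 to 553 summed CPM in cKO and 555 to 603 CPM in Ctrl libraries, with 0 called by edgeR and 5 at an unadjusted p under 0.05. Their part in the netrin values was not tested.

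Most genes for proteins that work with these ligands and receptors did not pass. Of 84 tested partners, 1 rose, 1 fell and 82 did not pass (2.38%, beside 3.95% of all genes), with a median log2 fold change of -0.02. An unadjusted p under 0.05 was found for 14 of the 84, beside 2981 of 16928 genes. Among these 14 were 7 Eph and ephrin partners and 5 Slit and Robo partners. The CPM values of the groups did not overlap for 23 partners (27.4%), beside 22.9% of all tested genes. Pick1, a PDZ protein that binds Eph receptors, ephrin-B ligands and AMPA receptors, was the 1 of 32 tested Eph and ephrin partners that rose, at 24.2 ± 0.83 CPM in cKO and 19.5 ± 1.11 CPM in Ctrl libraries (log2 fold change 0.31, edgeR adjusted p = 0.0352). Rac1, the small GTPase through which Robo, Dcc and Eph receptors act on actin, was the 1 of 23 Slit and Robo partners that fell, at 212 ± 7.82 CPM in cKO and 243 ± 13.2 CPM in Ctrl libraries (log2 fold change -0.20, edgeR adjusted p = 0.0305). None of 25 partners of Dcc, Neo1 and Unc5 receptors passed in edgeR, with 1 at an unadjusted p under 0.05, and none of 4 genes of the netrin-G group passed either, again with 1 at an unadjusted p under 0.05. The lowest p in these lists were those of Ablim3 (0.12, edgeR adjusted p = 0.251) and Ntng2 (0.14, edgeR adjusted p = 0.218). DESeq2 called 5 partners, and with 1 library left out edgeR called 0 (without cKO replicate 2 or 3) or 1 (without any other library, the library labelled Ctrl replicate 1 included).

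Fold changes of the guidance genes ran with the GC content of their transcripts. The 20 members above 55% GC had a median log2 fold change of 0.09, with 15 above 0, and included Robo3 (57.7%), Epha10 (59.5%) and Slit1 (58.9%), whereas the 18 members at 55% or less had a median of -0.05, with 5 above 0 and none called. The same split over all tested protein-coding genes gave medians of 0.06 and -0.02, with 9.10% and 2.96% of genes called. Across the 38 members, which share the same 6 libraries, Pearson's r between GC content and log2 fold change was 0.48, beside 0.24 across 13936 protein-coding genes. The members were richer in GC than those genes, with medians of 55.3% and 49.9%. With offsets for GC content and length fitted per library, Robo3 was the 1 member that passed (0.53, edgeR adjusted p = 0.000508), beside 2.75% of all tested genes. The offsets were fitted without regard to group, so they also take out any group difference that runs with GC content or length. The source of such a difference was not tested.

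**Figure D5:**
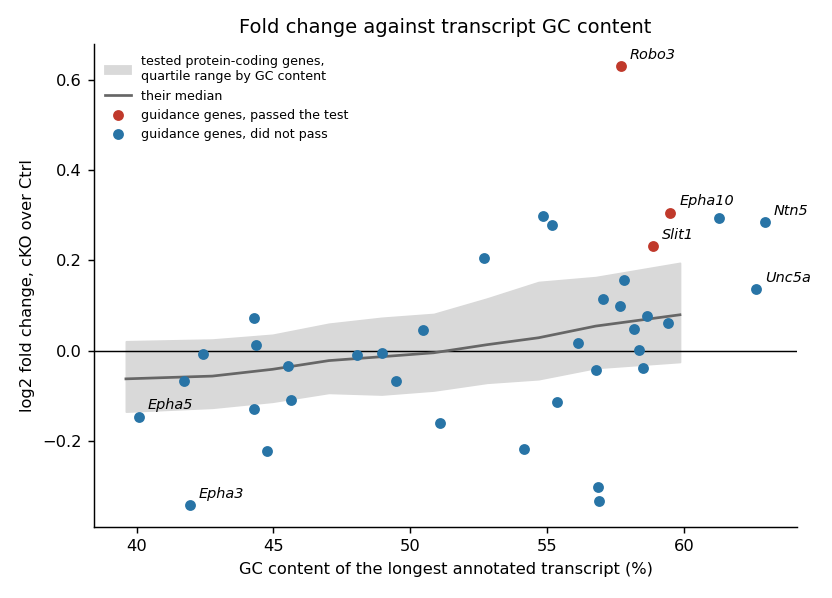
Log2 fold change (cKO over Ctrl) of the 38 guidance genes against the GC content (%) of their longest annotated transcript; the line and band give the median and quartile range of tested protein-coding genes in bins of GC content. Robo3, Epha10 and Slit1 lie between 57.7% and 59.5% GC, above the band. Members that did not pass also lie above it, among them Epha1, Robo4 and Ephb1.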

How the data were processed

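Total RNA of dentate gyrus was sequenced in 3 cKO and 3 Ctrl libraries. The authors deposited whole-number gene counts and FPKM values, with gene length in bases. The submitters' processing notes name the GRCm38 build and, as tools, featureCounts 1.5.0-p3, HISAT2 2.0.5 and StringTie 1.3.3b. Neither strand use nor the role of each tool is stated. Each deposited FPKM value is a count over gene length and over 1 library constant, 99.8% to 101% of the library total.

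Counts were tested in R 4.3.3 with edgeR 4.0.16 (TMM, filterByExpr with minimum count 10 and minimum total 15, quasi-likelihood F test on group, Benjamini-Hochberg over 16928 genes, false discovery rate under 0.05); a standard error is the log2 fold change over the root of F. Scaled CPM were used for levels of 1 gene, deposited FPKM between genes. Alternatives were scaling by RLE or upper quartile, DESeq2 1.42.0, voom from limma 3.58.1, its trend method for log2(FPKM + 0.1) or log2(FPKM + 1), dropping the filter, a filter of 1 CPM in 3 libraries, protein-coding genes alone, a replicate block, each library left out, and loess offsets (span 0.3) for GC content and length. GC content and GGACT came from GENCODE M21 (GRCm38), which matched all 38 members, and promoter windows from RefSeq (GRCm38.p6), which matched 33. The edgeR test was also run on simulated counts with known changes, all larger than those of Epha10 and Slit1. That run does not bear on changes of their size.

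Libraries were grouped by title, with 0 unused columns. Replicate numbers were not taken as pairs: the correlation of deviations at equal numbers was 0.0914, 0.0180 and 0.00846. Replicates of a group differed beyond sampling noise (chi-square per degree of freedom 2.71 to 4.70), and the highest values involved Ctrl replicate 1. The guidance genes, partner lists and marker lists were chosen with earlier results of these data known. All members are named; from each partner list the genes that passed are named, otherwise the lowest p.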

Additional observations from a re-analysis of the deposited data

How the results depend on the processing

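Robo3, Epha10 and Slit1 kept a log2 fold change above 0 under all 17 alternatives. The count of called members was 1 in limma on log2(FPKM + 1) 1 with GC and length offsets, 4 without a low-count filter, where Epha3 fell, and 2 or 3 with any 1 library left out. The count over all genes, 668 in the main test, was 1155 without a low-count filter, 110 and 95 in limma on log2(FPKM + 0.1) and log2(FPKM + 1), and 214 to 535 with 1 library left out; 77.8% of calls were higher in cKO in the main test and 66.5% with GC and length offsets. Called partners, 2 in the main test, numbered 5 in DESeq2, 7 without a low-count filter, 0 and 0 in both FPKM fits, and 0 to 1 with 1 library left out. With the replicate number as a replicate block, 3 members and 808 genes were called. No member called in the main test changed sign, but 14 others did in at least 1 alternative, and the cause was not tested. With GC and length offsets the log2 fold change was -0.0415 for Efna3, -0.0247 for Efnb1, -0.0227 for Ephb6, -0.0334 for Unc5b and -0.0880 for Ephb4. Ephb4 was at -0.00217 with RLE, -0.00633 with upper-quartile scaling, -0.00272 in DESeq2, -0.0106 in limma-voom, -0.00558 without a filter, -0.000648 at 1 CPM in 3 libraries, -0.00685 with the replicate block, and -0.0170 and -0.00526 in the FPKM fits. With 1 library left out, log2 fold changes crossed 0 for Efna2 (-0.134 to 0.0181), Efna3 (-0.0769 to 0.0631), Efna4 (-0.833 to 0.444), Efnb1 (-0.0514 to 0.156), Efnb2 (-0.0303 to 0.120), Epha6 (-0.0729 to 0.0673), Ephb3 (-0.00592 to 0.208), Ephb4 (-0.136 to 0.125), Neo1 (-0.0292 to 0.0119), Robo1 (-0.161 to 0.0462), Robo2 (-0.0204 to 0.00963) and Unc5c (-0.0831 to 0.0755). Efna4 had 76 counts in all, so its values carry wide counting error.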
